A study of Schizosaccharomyces pombe with 8 samples.

Results

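The ribosomal RNA (rRNA) features were taken as every feature of the count files whose ID starts with SPRRNA., and 49 of the 6974 features were of this kind. The reference annotation (RefSeq, genome ASM294v3) gave a product for 47 of them, namely 3 copies of 28S, 5 of 18S, 3 of 5.8S and 36 of 5S rRNA. The other 2, SPRRNA.01 and SPRRNA.02, are not named there and had 0 counts in all 8 libraries, as had all 36 features with a mitochondrial ID. The libraries came from seqRIP-seq in the fission yeast S. pombe, a sequential immunoprecipitation on IgG and anti-FLAG beads after crosslinking with 0.2% formaldehyde. It recovers RNA held by Mmi1 and Mei2 together. Before crosslinking, cells of all groups grew at 30 °C in EMM, a minimal medium, to mid-log phase, with a culture time of 2 days. Mmi1 is an RNA-binding protein that directs meiotic transcripts to degradation during mitotic growth, and Mei2 is the RNA-binding protein that drives entry into meiosis. The strain of interest expressed TAP-Mmi1 and the negative control GFP-Mmi1, both from the mild nmt41 promoter, and both also carried 3xFLAG-Mei2 under the strong nmt1 promoter, so that Mei2 was overexpressed in mitotic cells of either strain. The 4 groups were the TAP-Mmi1 IP, the GFP-Mmi1 IP, the TAP-Mmi1 whole cell extract (WCE) and the GFP-Mmi1 WCE, with 2 libraries each. IgG beads have no TAP tag to hold in the GFP-Mmi1 strain, so the GFP-Mmi1 IP measured what passed both steps without TAP-Mmi1. rRNA was removed from the WCE samples with a commercial depletion reagent but not from the IPs, so an IP/WCE ratio of an rRNA feature contains that depletion and is no measure of binding.

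Ribosomes of fission yeast contain an 18S rRNA in the small subunit and 28S, 5.8S and 5S rRNAs in the large subunit. RNA polymerase I transcribes 18S, 5.8S and 28S rRNA as one precursor from tandem repeats (rDNA), and the precursor is then cut into the mature RNAs. RNA polymerase III transcribes 5S rRNA separately, and in fission yeast the 5S genes are dispersed through the genome instead of lying inside the rDNA repeat. In the annotation, the 5S features lay on chromosome I (12), chromosome II (16) and chromosome III (8), while all 11 features of the large transcript lay at the ends of chromosome III. None of the annotated rRNA features overlapped another annotated gene.

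The copies of a class are so alike in sequence that their counts cannot be treated as separate measurements. The 3 features of 28S (SPRRNA.47, SPRRNA.48 and SPRRNA.49, 3485 nt) were identical to each other, as were the 3 of 5.8S (SPRRNA.50, SPRRNA.51 and SPRRNA.52, 165 nt) and the 3 complete features of 18S (SPRRNA.43, SPRRNA.44 and SPRRNA.46, 1842 nt). SPRRNA.42 (1390 nt) and SPRRNA.45 (1001 nt) are partial 18S copies that reach the ends of the assembled chromosome III. At the read length of 75 nt, 10 of the 11 large features held no 75 nt window that occurs only once in the genome. Of the 36 5S features, 10 held no such window, and the other 26, some of them annotated with flanking sequence to a length of up to 440 nt, held at least 1. The 5.8S sequence and the 5S sequences that the results turn on are shown here from RefSeq ASM294v3, 5′ to 3′ as DNA. SPRRNA.10 carries the most common 5S sequence, of 119 nt, which 22 features held in full. Capitals in the other 5S sequences mark bases that differ from it.
SPRRNA.50 (5.8S): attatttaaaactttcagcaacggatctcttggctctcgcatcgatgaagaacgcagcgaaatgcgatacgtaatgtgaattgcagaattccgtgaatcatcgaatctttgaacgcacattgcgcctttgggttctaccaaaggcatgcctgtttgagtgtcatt
SPRRNA.10 (5S): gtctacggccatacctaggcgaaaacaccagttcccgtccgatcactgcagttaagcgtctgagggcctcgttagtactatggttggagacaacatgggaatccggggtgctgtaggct
SPRRNA.05 (5S): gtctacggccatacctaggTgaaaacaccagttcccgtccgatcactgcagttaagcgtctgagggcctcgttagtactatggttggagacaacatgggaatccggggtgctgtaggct
SPRRNA.11 (5S): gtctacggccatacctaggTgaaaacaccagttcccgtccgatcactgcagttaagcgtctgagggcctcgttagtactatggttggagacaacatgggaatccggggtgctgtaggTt
SPRRNA.15 (5S): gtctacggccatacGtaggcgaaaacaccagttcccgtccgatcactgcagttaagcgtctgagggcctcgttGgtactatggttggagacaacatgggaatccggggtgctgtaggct
SPRRNA.53 (5S): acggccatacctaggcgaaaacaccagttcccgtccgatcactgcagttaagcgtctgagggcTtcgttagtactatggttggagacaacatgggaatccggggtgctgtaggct
SPRRNA.41 (5S, partial): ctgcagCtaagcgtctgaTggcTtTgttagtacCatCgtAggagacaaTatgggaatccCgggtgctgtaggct

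SPRRNA.10 lies on chromosome I from 149658 to 149776, and SPRRNA.50 on chromosome III from 9842 to 10006. SPRRNA.04 and SPRRNA.05 carry the single change C20T, counted from 1 at the 5′ end of the common sequence with the common base first, and SPRRNA.11 carries C20T and C118T. SPRRNA.15 carries C15G and A74G. SPRRNA.53 starts 4 bases further in than the common sequence and carries C68T. SPRRNA.41 aligned over 74 bases with 9 substitutions, and SPRRNA.54 aligned only with gaps. These features were picked for display after their counts had been seen.

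rRNA took most of the counts in both IPs and a minor share in the WCEs. The total count of a library lay between 34416171 and 37818703 in the 4 IPs, at 53709147 and 49999623 in WCEs from TAP-Mmi1 cells, and at 36449461 and 36456724 in WCEs from GFP-Mmi1 cells. The rRNA features held 79.2% and 81.9% of all counts in IPs from TAP-Mmi1 cells, against 96.4% and 96.0% in IPs from GFP-Mmi1 cells. They held 14.2% and 27.4% in WCEs from TAP-Mmi1 cells, against 7.98% and 11.6% in WCEs from GFP-Mmi1 cells. The share was thus lower in both TAP-Mmi1 IPs than in either GFP-Mmi1 IP, and higher in both TAP-Mmi1 WCEs than in either GFP-Mmi1 WCE. With 2 libraries against 2 an exact permutation test cannot give a two-sided p below 0.333. The labels do not say whether replicates were separate cultures, so p-values measure only the spread between these samples.

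28S rRNA carried most of the rRNA counts in every library. It had 76.0% and 73.7% of the rRNA count in IPs from TAP-Mmi1 cells, 74.1% and 76.8% in IPs from GFP-Mmi1 cells, 97.3% and 97.0% in WCEs from TAP-Mmi1 cells, and 95.4% and 93.2% in WCEs from GFP-Mmi1 cells. 18S rRNA followed with 23.8% and 26.1% in IPs from TAP-Mmi1 cells, 25.7% and 23.1% in IPs from GFP-Mmi1 cells, 2.28% and 2.84% in WCEs from TAP-Mmi1 cells, and 4.40% and 6.61% in WCEs from GFP-Mmi1 cells. The division between 28S and 18S therefore separated IP from WCE without overlap, whereas the values of the 2 IPs overlapped.

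The small rRNAs carried little. 5.8S rRNA had 0.199% and 0.173% of the rRNA count in IPs from TAP-Mmi1 cells, 0.0927% and 0.0693% in IPs from GFP-Mmi1 cells, 0.368% and 0.197% in WCEs from TAP-Mmi1 cells, and 0.196% and 0.197% in WCEs from GFP-Mmi1 cells. All 36 5S features together had 0.0164% and 0.0269% in IPs from TAP-Mmi1 cells, 0.0329% and 0.0304% in IPs from GFP-Mmi1 cells, 0.00636% and 0.00699% in WCEs from TAP-Mmi1 cells, and 0.0151% and 0.0115% in WCEs from GFP-Mmi1 cells. The lowest of these, in the first TAP-Mmi1 WCE library, rests on 485 counts, with a 95% Wilson interval of 0.00582% to 0.00695%. Such intervals cover counting error only, and the 2 TAP-Mmi1 IP libraries differed by more than theirs. The ranking 28S, 18S, 5.8S, 5S was the same in all 8 libraries.

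**Figure D1:**
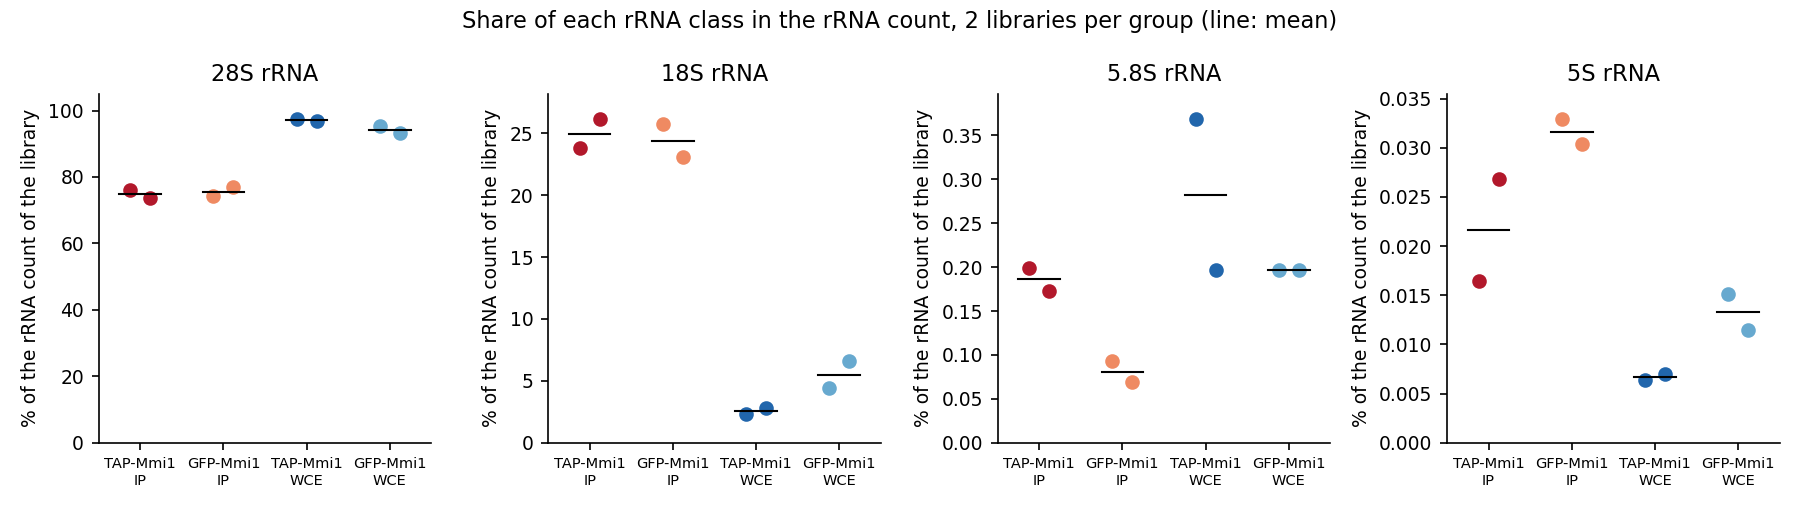
Share of each rRNA class (y axis, % of the rRNA count of the library) in the 2 libraries of each group (points), with the group mean as a line; each panel has its own axis from 0. The 28S share is 73.7% to 76.8% in the 4 IP libraries and 93.2% to 97.3% in the 4 WCE libraries, and the 18S share is the mirror of it.

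IP and WCE of the same strain and number come from one extract, which gives 4 pairs. The 28S share was lower in the IP in 4 of 4 pairs, with a mean difference of -20.5 percentage points, and the 18S share was higher in 4 of 4 pairs (20.6 points). The 5.8S share was lower in the IP in 4 of 4 pairs (mean difference -0.106 points) and the 5S share higher in 4 of 4 (0.0167 points). For each class the exact two-sided permutation test over the 4 pairs gave p = 0.125, the smallest it can give. Depletion of the WCE and recovery in the IP cannot be told apart here.

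Dividing by length showed the same contrast on a scale that allows classes to be compared. The count per nt of 28S over that of 18S was 1.69 and 1.49 in IPs from TAP-Mmi1 cells and 1.52 and 1.76 in IPs from GFP-Mmi1 cells, against 22.5 and 18 in WCEs from TAP-Mmi1 cells and 11.5 and 7.45 in WCEs from GFP-Mmi1 cells. The 4 IP libraries were thus all closer to an even ratio of the large rRNAs than any of the 4 WCE libraries. The ratio of 28S to 5S per nt was 158 and 93.6 in IPs from TAP-Mmi1 cells and 77.0 and 86.2 in IPs from GFP-Mmi1 cells, against 522 and 473 in WCEs from TAP-Mmi1 cells and 216 and 277 in WCEs from GFP-Mmi1 cells. 5S rRNA, which is present once per ribosome like 28S, was therefore counted far below 28S in every library. How much of this gap goes with the short length of 5S was not tested. The ratio of 28S to 5.8S per nt was 18.1 and 20.1 in IPs from TAP-Mmi1 cells, 37.9 and 52.5 in IPs from GFP-Mmi1 cells, 12.5 and 23.4 in WCEs from TAP-Mmi1 cells, and 23.0 and 22.4 in WCEs from GFP-Mmi1 cells. Here it was the GFP-Mmi1 IP that stood apart from the other 3 groups.

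**Figure D2:**
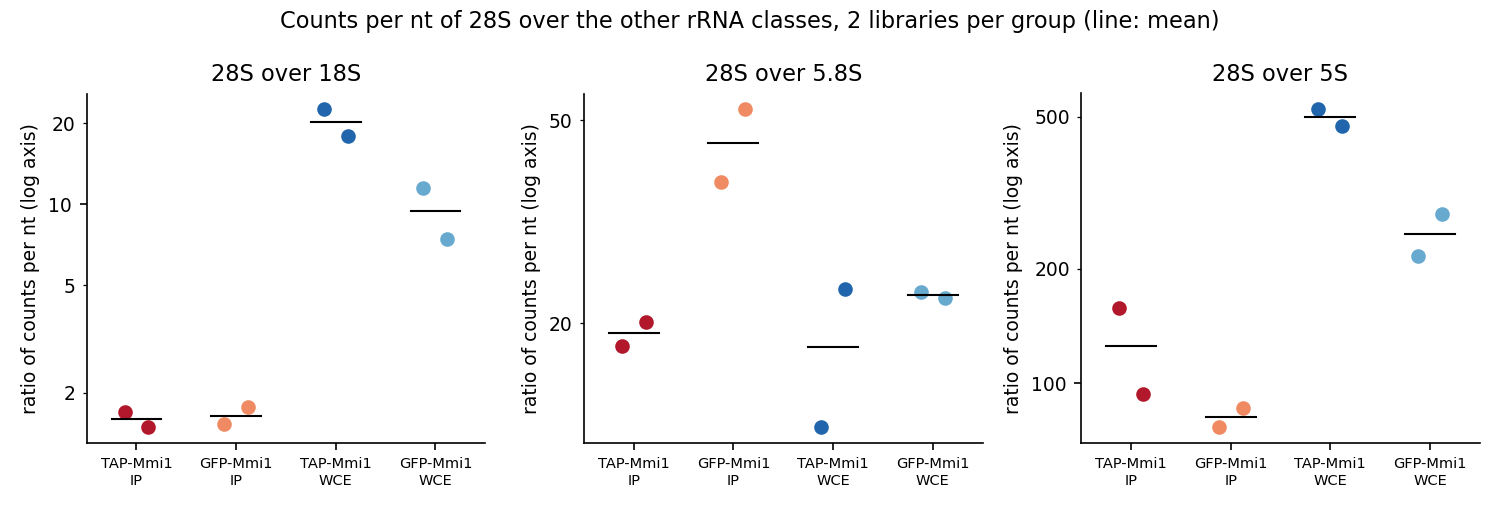
Ratio of counts per nt of 28S rRNA to 18S, 5.8S and 5S rRNA (y axis, log scale) in the 2 libraries of each group (points), with the mean as a line. For 28S over 18S the IP libraries lie at 1.49 to 1.76 and the WCE libraries at 7.45 to 22.5, while for 28S over 5.8S the GFP-Mmi1 IP is highest, at 37.9 and 52.5.

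The comparison of both IPs sets rRNA counts with TAP-Mmi1 against those of the control, and both were prepared without depletion. Counts are relative within a library, so the comparison does not measure how much rRNA was retained. Relative to the typical feature (TMM normalization), rRNA was lower in IPs from TAP-Mmi1 cells. In edgeR's quasi-likelihood test 47 rRNA features were tested, 44 were lower and 0 were higher (adjusted p under 0.05), with a median log2 difference of -3.17. Over all 6828 features tested, 28.8% were called lower and 24.7% higher, with a median of -0.06. At an unadjusted p under 0.05 the counts for the rRNA features were also 44 lower and 0 higher, and DESeq2 called 44 lower and 0 higher (29.9% and 30.1% of all features). All 3 28S, all 5 18S, all 3 5.8S and 33 of 36 5S features were among those called. Since copies of a class cannot be treated as separate measurements, the 44 are not that many independent results. The result depends on the scale. Features other than rRNA had 7596584 and 6836961 counts in IPs from TAP-Mmi1 cells, against 1249213 and 1374433 in IPs from GFP-Mmi1 cells. The typical feature, to which rRNA was compared, thus itself had more counts with TAP-Mmi1. Scaled by total counts alone, which moved the median of all features to 2.36, edgeR called 7 rRNA features lower (0.835% of all features) and 5 higher (90.3% of all features).

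Among the large transcripts, SPRRNA.49 (28S) had 5785738 and 5884383 counts in IPs from TAP-Mmi1 cells, against 6394318 and 6558645 in IPs from GFP-Mmi1 cells. Its log2 difference was -2.69 ± 0.53 (SE, adjusted p = 0.0036 in edgeR), and the identical SPRRNA.47 and SPRRNA.48 had -2.70 each. For 18S, SPRRNA.46, the feature with the highest mean count of its class, had 1725022 and 1946411 counts in IPs from TAP-Mmi1 cells, against 2060489 and 1838760 in IPs from GFP-Mmi1 cells, with a log2 difference of -2.62 ± 0.59 (SE, adjusted p = 0.0073 in edgeR). The raw counts of the 2 IPs overlapped for SPRRNA.46 and not for SPRRNA.49. SPRRNA.43 (-2.68), the partial SPRRNA.42 (-2.69) and SPRRNA.45 (-2.51), which had the lowest mean count, were alike. Without the first TAP-Mmi1 IP library the 5 18S features had log2 differences of -2.58 to -2.37 and adjusted p-values of 0.055 to 0.060 in edgeR, so they were not called, although the size of the difference was about as large. Without the second they had log2 differences of -2.83 to -2.67 and adjusted p-values of 0.043 to 0.050 in edgeR.

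5.8S rRNA, which pairs with 28S in the large subunit, had log2 differences nearer 0 than 28S and was higher in raw counts, a difference between classes that was not tested. SPRRNA.51 had 19357 and 17570 counts in IPs from TAP-Mmi1 cells, against 11125 and 8120 in IPs from GFP-Mmi1 cells. Relative to the typical feature its log2 difference was -1.59 ± 0.20 (SE, adjusted p = 0.00034 in edgeR). SPRRNA.50 had -1.57 and SPRRNA.52 -1.25. Scaled by total counts, the 3 features changed sign, to 0.85 for SPRRNA.50, 0.83 for SPRRNA.51 and 1.17 for SPRRNA.52, with adjusted p-values of 0.00034 to 0.00097 in edgeR.

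5S rRNA had the lowest log2 differences, with a class median of -3.32. SPRRNA.10, with the common sequence and nothing else, had 91 and 139 counts in IPs from TAP-Mmi1 cells, against 257 and 247 in IPs from GFP-Mmi1 cells, and a log2 difference of -3.66 ± 0.28 (SE, adjusted p = 3.2e-05 in edgeR). SPRRNA.37 (-3.42) and SPRRNA.18 (-3.34) were the other 5S features with the smallest adjusted p. SPRRNA.30, in the middle of the class by mean count, had 109 and 216 counts in IPs from TAP-Mmi1 cells, against 248 and 212 in IPs from GFP-Mmi1 cells, where the libraries overlapped, and a log2 difference of -3.03 ± 0.34 (SE). SPRRNA.11, with the highest mean count of the class, had 213 and 662 counts in IPs from TAP-Mmi1 cells, against 673 and 553 in IPs from GFP-Mmi1 cells, and a difference of -3.02 ± 0.55 (SE). The 2 TAP-Mmi1 IP libraries were further apart from each other for SPRRNA.11 than the 2 GFP-Mmi1 IP libraries.

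The 3 features that did not pass the test were 5S features that depart from the common sequence, and they are named because the count is small. Other 5S features that depart from it, such as SPRRNA.11, SPRRNA.18, SPRRNA.30 and SPRRNA.37, were called lower. SPRRNA.15 had 89 and 259 counts in IPs from TAP-Mmi1 cells, against 47 and 48 in IPs from GFP-Mmi1 cells, and a log2 difference of -0.66 ± 0.51 (SE, adjusted p = 0.30 in edgeR). Its raw counts ran the other way from those of SPRRNA.10. So did those of SPRRNA.12, which departs from the common sequence but was called lower. SPRRNA.12 had 184 and 275 counts in IPs from TAP-Mmi1 cells, against 130 and 157 in IPs from GFP-Mmi1 cells. Scaled by total counts, 90.3% of all features were called higher in IPs from TAP-Mmi1 cells. All 87 windows of SPRRNA.15 are unique in the genome. SPRRNA.41 had 4 and 27 counts in IPs from TAP-Mmi1 cells, against 0 and 1 in IPs from GFP-Mmi1 cells, which lie under the limit of 3 counts that a count of 0 allows. SPRRNA.54, with the lowest mean count of the class, had 32 and 1 counts in IPs from TAP-Mmi1 cells, against 1 and 8 in IPs from GFP-Mmi1 cells, so its groups overlapped.

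Within rRNA, 28S and 18S took like shares of the 2 IPs, while 5.8S took a larger share of both TAP-Mmi1 IP libraries than of either GFP-Mmi1 IP library. With the rRNA total of each library as its size, the 28S features differed by -0.02 to -0.00 and the 18S features by -0.01 to 0.16 on the log2 scale, with adjusted p-values of 0.78 or more in edgeR, and SEs of 0.53 to 0.55. The 5.8S features had log2 differences of 1.09 to 1.42, of which SPRRNA.52 passed the test (1.42 ± 0.60 SE, adjusted p = 0.021 in edgeR). SPRRNA.50 (adjusted p = 0.069) and SPRRNA.51 (adjusted p = 0.073 in edgeR) did not. The 5S features had a median of -0.64, none was called lower, and SPRRNA.15 (1.99) and SPRRNA.41 were called higher. No fold is given for SPRRNA.41, whose 0 and 1 counts in IPs from GFP-Mmi1 cells lie under the limit of 3 counts. This scale called 3 rRNA features higher and 0 lower, where 86.2% of all features were called higher and 0.103% lower. 5.8S was also higher in WCEs from TAP-Mmi1 cells relative to the typical feature, as described below. With the rRNA total as library size, the IP/WCE ratios of the strains differed by 0.58 to 0.87 for 5.8S on the log2 scale. None of these passed the test (adjusted p of 0.30 to 0.49 in edgeR), and depletion of the WCEs enters that ratio.

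**Figure D3:**
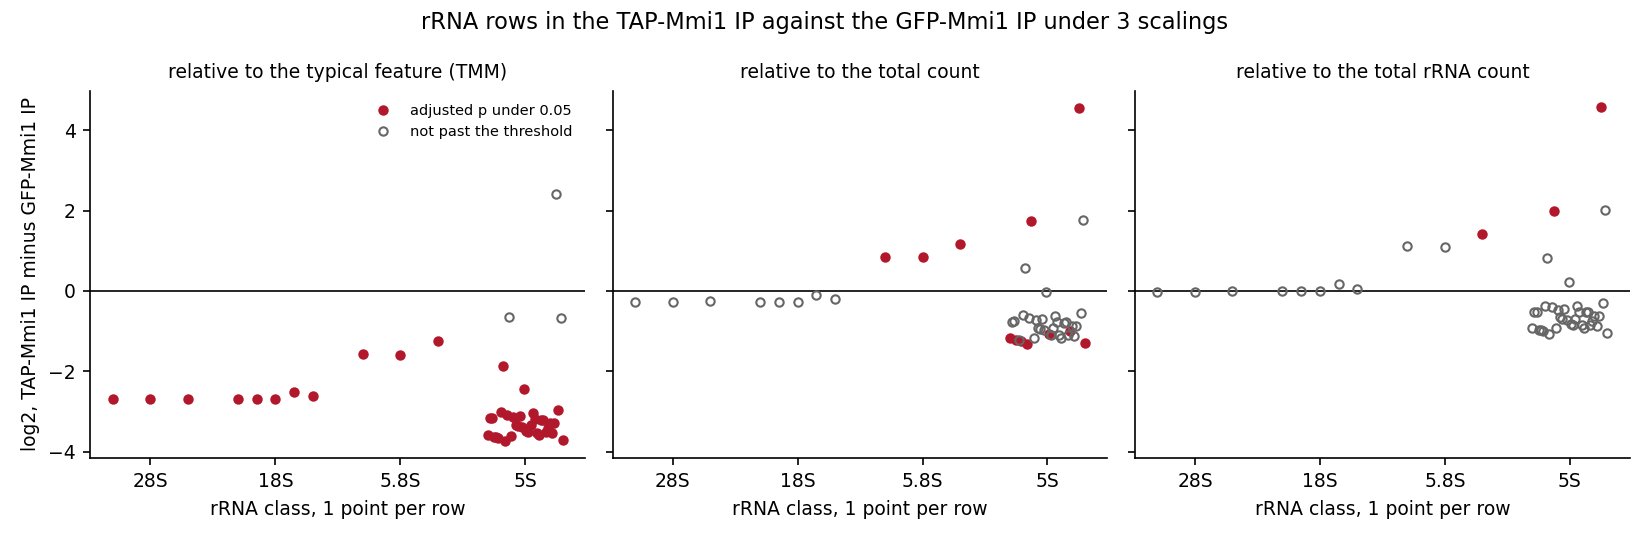
log2 difference of each of the 47 rRNA features tested between the TAP-Mmi1 IP and the GFP-Mmi1 IP (y axis), by class, relative to the typical feature, to the total count and to the total rRNA count; filled points passed adjusted p under 0.05 in edgeR. The class medians run from -3.32 (5S) to -1.57 (5.8S) in the first panel, and the 5.8S features are above 0 in the other panels; the fitted value drawn for SPRRNA.41 rests on 0 and 1 counts in IPs from GFP-Mmi1 cells and is no measure of a fold.

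The ratio IP/WCE with TAP-Mmi1 against that with GFP-Mmi1, the comparison the study makes for each RNA, gave 43 rRNA features lower and 0 higher in edgeR's interaction test, with a median log2 difference of -3.57. Over all features 23.7% were called lower and 18.9% higher. DESeq2 called 44 lower and 0 higher (26.1% and 25.1% of all features), as did an unadjusted p under 0.05 in edgeR. The class order changed from that between the IPs, with medians of -4.13 for 28S, -3.64 for 5S, -3.28 for 5.8S and -2.98 for 18S. The WCEs enter this ratio, and the count fell to 16 without the second TAP-Mmi1 WCE library, which had the highest rRNA share of the WCEs, and to 29 without the first GFP-Mmi1 WCE library. With each IP and its WCE as a block, 44 features were lower. Scaled by total counts, 5 were lower and 1 higher, where 0.469% of all features were called lower and 89.5% higher. With the rRNA total as library size, 1 was higher and 0 were lower (93.0% and 0.0439% of all features).

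Each IP against its own WCE describes depletion together with recovery. With TAP-Mmi1, 46 of 47 rRNA features were higher in the IP and 0 lower in edgeR (29.1% and 30.7% of all features), and with GFP-Mmi1 45 were higher and 0 lower (11.1% and 6.47% of all features). DESeq2 called 46 higher in either IP (34.3% and 16.6% of all features) and 0 lower (31.7% and 13.7%). Scaled by total counts, 45 were higher and 0 lower with TAP-Mmi1 (3.97% and 84.7% of all features), and 45 higher and 1 lower with GFP-Mmi1 (0.747% and 98.2%). 18S features were higher in IPs from TAP-Mmi1 cells by 7.39 to 7.67 on the log2 scale, and 28S features by 3.81 to 3.92. In IPs from GFP-Mmi1 cells, 18S features were higher by 10.1 to 10.7 and 28S features by 7.97 to 8.05. 5.8S features were higher by 3.58 to 4.0 for TAP-Mmi1 cells and by 6.58 to 7.32 for GFP-Mmi1 cells. The 5S medians were 6.74 for TAP-Mmi1 cells and 10.5 for GFP-Mmi1 cells, so that 5S stood with 18S and not with 28S and 5.8S. With the rRNA total as library size, all 5 18S features were higher in the IP of either strain, 25 of 36 5S features were higher with TAP-Mmi1, and 22 were higher and 1 lower with GFP-Mmi1. No 28S feature passed that test in either strain. 5.8S had 0 calls with TAP-Mmi1 and 1 lower with GFP-Mmi1. In all, 30 rRNA features were higher with TAP-Mmi1 (0.659% of all features) and 27 with GFP-Mmi1 (0.439%), where 94.7% and 99.2% of all features were lower.

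Between the WCEs, both depleted, 2 of 47 rRNA features were higher in WCEs from TAP-Mmi1 cells and 0 lower in edgeR, against 0.293% and 0.0586% of all features. Both were 5.8S. SPRRNA.51 had 8506 and 7994 counts in WCEs from TAP-Mmi1 cells, against 1821 and 2377 in WCEs from GFP-Mmi1 cells, with a log2 difference of 1.74 ± 0.20 (SE, adjusted p = 0.016 in edgeR). SPRRNA.50 had 8428 and 8060 counts in WCEs from TAP-Mmi1 cells, against 1859 and 2433 in WCEs from GFP-Mmi1 cells (1.71 ± 0.20 SE, adjusted p = 0.019 in edgeR). The identical SPRRNA.52 had 1.75 ± 0.27 (SE) and an adjusted p of 0.053 in edgeR, so these 3 copies of one RNA lay on either side of the threshold. Leaving out any WCE library in turn reduced the calls to 0 or 1, and 0 remained without either TAP-Mmi1 WCE library or the first GFP-Mmi1 WCE library. The log2 differences themselves stayed at 1.51 to 1.93 for SPRRNA.50 and at 1.54 to 1.96 for SPRRNA.51. The 28S features were at 1.43 to 1.47 and the 18S features at 0.22 to 0.36, none past the threshold in edgeR. At an unadjusted p under 0.05 in edgeR 7 features were higher, and DESeq2 called 6 higher and 0 lower (4.03% and 1.55% of all features). These 6 were all 3 28S features (adjusted p = 0.0048 in DESeq2) and all 3 5.8S features, so the tools differed on 28S. Scaled by total counts, 3 were higher and 0 lower (0.176% and 0.103% of all features), and with the rRNA total as library size 0 were called in either direction (0.0146% and 0.234%).

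Copies with one sequence did not receive equal counts. SPRRNA.48 over SPRRNA.47 was 0.999 to 1.00 in all 8 libraries. SPRRNA.49, which has the same 3485 bases but lies at the other end of chromosome III, had 0.717 and 0.694 times the count of SPRRNA.47 in IPs from TAP-Mmi1 cells, 0.701 and 0.697 in IPs from GFP-Mmi1 cells, 0.739 and 0.767 in WCEs from TAP-Mmi1 cells, and 0.741 and 0.738 in WCEs from GFP-Mmi1 cells. SPRRNA.49 was below its copies in every library. SPRRNA.52 over SPRRNA.50, both 5.8S with one sequence, was 0.939 and 1.06 in IPs from TAP-Mmi1 cells, 0.778 and 0.835 in IPs from GFP-Mmi1 cells, 1.32 and 1.35 in WCEs from TAP-Mmi1 cells, and 1.09 and 1.46 in WCEs from GFP-Mmi1 cells. This ratio was on different sides of 1 in IPs from GFP-Mmi1 cells and in the WCEs. SPRRNA.46 over SPRRNA.43 (18S) stayed between 1.02 and 1.16. How reads that align to several copies were assigned is not given in the sources used here, so values for single copies are uncertain and class sums are the safer measure. Class sums can still miss reads. Windows of the 3 28S features occur up to 4 times in the genome, so some sequence lies outside these features.

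**Figure D4:**
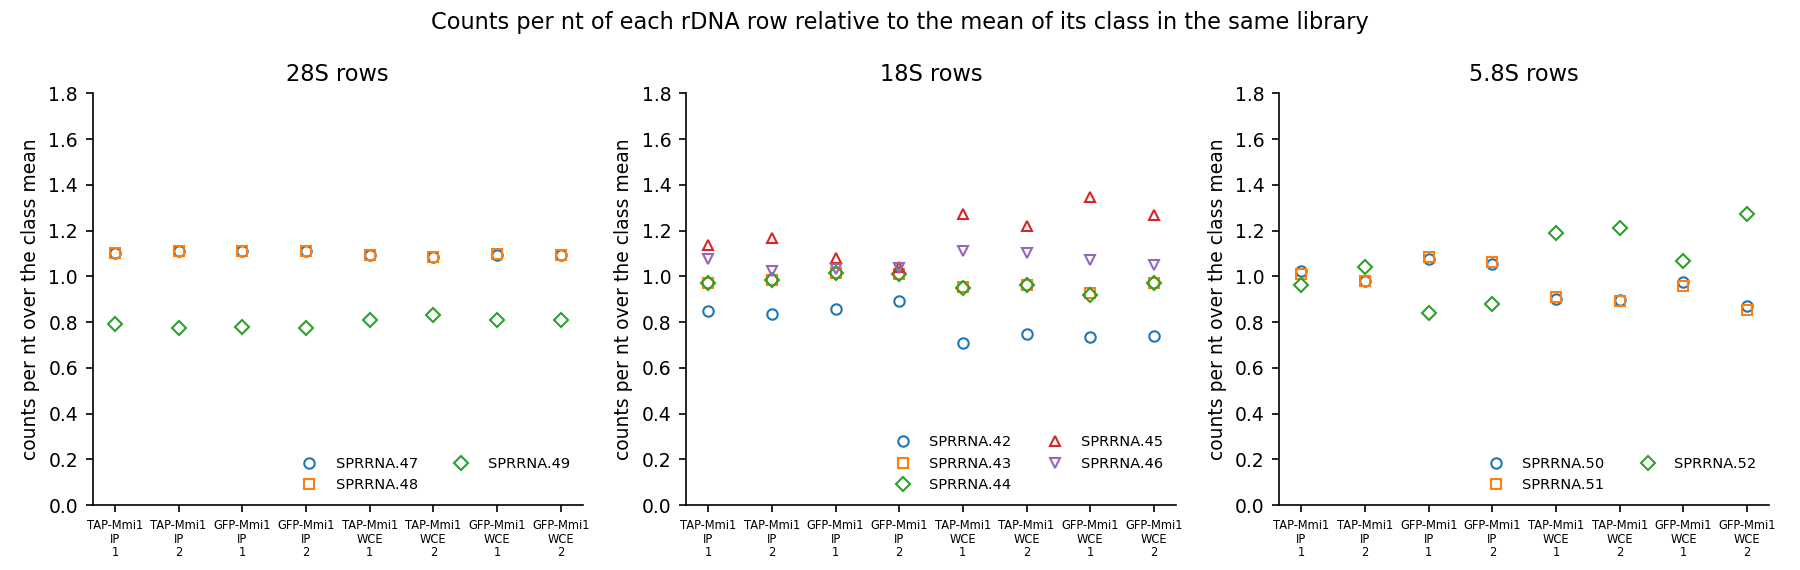
Counts per nt of each 28S, 18S and 5.8S feature (y axis, relative to the mean of its class in the same library) in the 8 libraries (x axis). SPRRNA.47 and SPRRNA.48 coincide while SPRRNA.49 lies below them in all 8 libraries, and the partial 18S features SPRRNA.45 and SPRRNA.42 lie above and below the complete copies.

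The 36 5S features differed strongly among themselves. The lowest, median and highest feature had 4, 111.5 and 403 counts in the first and 1, 208 and 662 in the second TAP-Mmi1 IP library, and 0, 261.5 and 723 in the first and 1, 250 and 631 in the second GFP-Mmi1 IP library. In the WCEs the median feature had 6 and 15 counts in the TAP-Mmi1 strain, against 5 and 7.5 in the GFP-Mmi1 strain, so most 5S features were at the edge of what these depths can measure there. SPRRNA.53, which carries C68T and has unique sequence in all of its windows, had 403 and 543 counts in IPs from TAP-Mmi1 cells and 650 and 631 in IPs from GFP-Mmi1 cells. It was the highest 5S feature in the first TAP-Mmi1 IP and the second GFP-Mmi1 IP library.

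The 3 features with C20T (SPRRNA.04, SPRRNA.05 and SPRRNA.11) had more counts than every other 5S feature in all 4 WCE libraries, a grouping made after the counts had been seen and given without a test. They are 8.33% of the 5S features and held 12.9% and 21.7% of the 5S counts in IPs from TAP-Mmi1 cells, 18.5% and 16.0% in IPs from GFP-Mmi1 cells, 42.7% and 44.1% in WCEs from TAP-Mmi1 cells, and 51.9% and 37.7% in WCEs from GFP-Mmi1 cells. SPRRNA.05 had 200 and 626 counts in IPs from TAP-Mmi1 cells, 723 and 562 in IPs from GFP-Mmi1 cells, 59 and 111 in WCEs from TAP-Mmi1 cells, and 54 and 46 in WCEs from GFP-Mmi1 cells. SPRRNA.11 had 87 and 175 counts in WCEs from TAP-Mmi1 cells and 96 and 68 in WCEs from GFP-Mmi1 cells, and SPRRNA.04 had 61 and 136 counts in WCEs from TAP-Mmi1 cells and 78 and 69 in WCEs from GFP-Mmi1 cells. The median of the 3 over the median of the 22 features with the common sequence was 1.97 and 3.75 in IPs from TAP-Mmi1 cells and 2.60 and 2.23 in IPs from GFP-Mmi1 cells, against 12.2 and 10.5 in WCEs from TAP-Mmi1 cells and 19.5 and 11.3 in WCEs from GFP-Mmi1 cells. The ratio did not overlap between IP and WCE libraries. The medians of the 22 were 5 and 13 counts in WCEs from TAP-Mmi1 cells and 4 and 6 in WCEs from GFP-Mmi1 cells, so the WCE ratios are coarse. Of the 45 windows of 75 nt within the 5S sequence, the 20 that cover position 20 of a C20T feature occur only in these 3 among the 5S features of full length, while windows past it occur in up to 30 of them. SPRRNA.04 and SPRRNA.05 lie on chromosome III on opposite strands, and SPRRNA.11 lies on chromosome I.

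**Figure D5:**
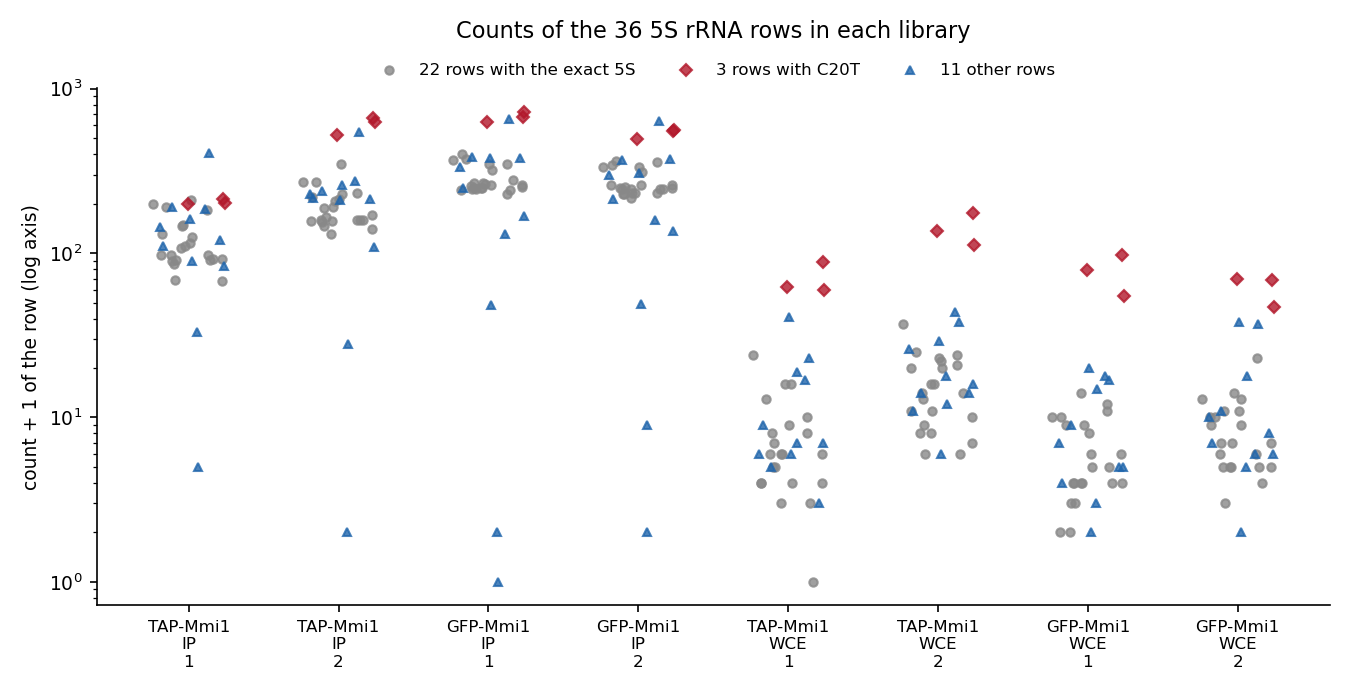
Counts of the 36 5S features (y axis, count + 1, log scale) in each of the 8 libraries (x axis), for the 22 features with the common sequence, the 3 with C20T and the 11 others; sideways scatter has no meaning. In the WCE libraries the 3 C20T features, at 46 to 175 counts, lie above all other 5S features.

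The genes of the machinery that makes and assembles these RNAs were read from the same fit, as a list of 51 symbols of which 46 were found. Between the 2 IPs, relative to the typical feature, 11 were higher and 11 lower in edgeR, with a median log2 difference of 0.09. Of all features, 24.7% were higher and 28.8% lower, so the share of the list called in either direction lay near that background. RNA polymerase I and its factors had 3 of 16 higher and 3 lower, RNA polymerase III and its factors 6 of 21 higher and 2 lower, and the proteins that bind or assemble 5S rRNA 2 of 7 higher and 5 lower. The mRNA of ker1, a subunit of RNA polymerase I, had 1318 and 1557 counts in IPs from TAP-Mmi1 cells, against 59 and 38 in IPs from GFP-Mmi1 cells (log2 2.36 ± 0.22 SE, adjusted p = 8.1e-05 in edgeR). The mRNA of maf1, a repressor of RNA polymerase III, had 499 and 715 counts in IPs from TAP-Mmi1 cells, against 31 and 15 in IPs from GFP-Mmi1 cells (log2 2.20 ± 0.33 SE, adjusted p = 0.00098 in edgeR). Both had the highest log2 differences of the list. Their counts did not overlap between the IPs. That is not particular to them, since scaled by total counts 90.3% of all features were called higher in IPs from TAP-Mmi1 cells. The lowest were rpl501 (-2.64) and rpl502 (-2.49), which encode a ribosomal protein that binds 5S rRNA. The mRNA of rpl501 had 434 and 488 counts in IPs from TAP-Mmi1 cells, against 460 and 532 in IPs from GFP-Mmi1 cells. Between the WCEs, 0 of the 46 passed the test in either direction.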

How the data were processed

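The authors deposited whole-number read counts per annotated feature for 8 libraries, without normalization. Reads (75 nt, paired-end) were demultiplexed with bcl2fastq 2.18.12, trimmed with Cutadapt 1.15, aligned with Bowtie2 and counted with MulticovBed. The genome build, annotation, strand setting and treatment of multiply aligned reads are not given in the sources used here. Coordinates and sequences are those of RefSeq ASM294v3, matched by feature ID.

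Groups were compared in R 4.3.3 by edgeR 4.0.16 (quasi-likelihood, filterByExpr by group, TMM, 8 libraries as 4 groups, Benjamini-Hochberg over 6828 features, threshold 0.05). Each SE was taken as the size of the log2 difference divided by the root of its F statistic. Tested on simulated data with a 4-fold change for the IP/WCE comparison between strains, the fit recovered 173 of 200 changed features, and 4 of its 177 calls were unchanged features (6815 features). The simulation gave all features a common dispersion of 0.0277. Its changed features were drawn above a set mean count and included no rRNA feature, so these rates do not describe the rRNA calls. Alternatives were library totals, the rRNA total as library size, rRNA left out of the normalization, DESeq2 1.42.0, no filter, replicate blocks and leaving out each library. IP and WCE with one strain and number come from one extract; their deviations correlated at 0.083 (TAP-Mmi1) and 0.028 (GFP-Mmi1) over features.

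Every rRNA feature was counted. Values were given for all members of classes with up to 4 features, the highest, middle and lowest by mean count and the 3 smallest adjusted p between the IPs in larger classes, features without annotation and those called between the WCEs. Members and lists were chosen with earlier results of these data known. Other features were named after their values were seen, as stated.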

Additional observations from a re-analysis of the deposited data

Results flagged for a closer look

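The contrast of IP with WCE differed between the strains for 43 rRNA features by edgeR's interaction test. They were lower with TAP-Mmi1 than with GFP-Mmi1 relative to the typical feature. Over all features 23.7% were called lower and 18.9% higher. With library totals 5 rRNA features were lower, and with the rRNA total as library size 0 were. The WCEs were depleted of rRNA, so this contrast contains that depletion. No other result met the criteria used, and groups of 2 libraries were too small to look for libraries that stand apart.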

How the results depend on the processing

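The direction and extent of the rRNA differences depend on the scale. Between the IPs (0 higher, 44 lower), library totals alone gave 5 higher and 7 lower, and the rRNA total as library size 3 higher and 0 lower. For IP/WCE between strains (0 higher, 43 lower), library totals gave 1 higher and 5 lower, and the rRNA total 1 higher and 0 lower. Against its own WCE, the TAP-Mmi1 IP had 30 higher with the rRNA total instead of 46, and the GFP-Mmi1 IP had 27 higher and 2 lower instead of 45 and 0, and 1 lower with library totals. Between the WCEs (2 higher), DESeq2 gave 6 and the rRNA total 0. These alternatives change only what the counts are measured against or the tool. Without filter and with rRNA left out of the normalization, every count was within 1.5 times of that given first. In these same comparisons the replicate blocks changed no count by more than that. The block of each IP with its WCE gave 44 lower for IP/WCE between strains, 45 higher with TAP-Mmi1 and 45 higher with GFP-Mmi1. The replicate number block gave 44 lower between the IPs and 2 higher between the WCEs. Replicate numbers of different strains are different cultures, because the strains differ. Their IP deviations correlated at 0.024, near the 0.028 of IP and WCE from one extract of GFP-Mmi1 cells. The correlation therefore cannot tell whether samples share a culture.

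Among single features between the IPs, the 5.8S features reversed with library totals (SPRRNA.50 0.85, SPRRNA.51 0.83, SPRRNA.52 1.17) and with the rRNA total (1.11, 1.09 and 1.42). SPRRNA.45 (0.16) and SPRRNA.46 (0.060) reversed with the rRNA total. SPRRNA.54 was 1.76 with library totals, 2.01 with the rRNA total, 0.28 without the second TAP-Mmi1 IP library and 1.55 without the second GFP-Mmi1 IP library (range -4.67 to 1.55 over all libraries left out). The cause was not tested.

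Leaving out each library in turn gave 38 to 45 lower and 0 to 1 higher between the IPs, 16 to 42 lower and 0 to 1 higher for IP/WCE between strains, 45 to 46 higher for either IP against its WCE, and 0 to 2 higher between the WCEs. Divided by length, the 28S share was 59.1% in IPs from TAP-Mmi1 cells, 60.8% in IPs from GFP-Mmi1 cells, 89.8% in WCEs from TAP-Mmi1 cells and 86.3% in WCEs from GFP-Mmi1 cells, and the 5S share 0.500%, 0.746%, 0.181% and 0.356% in the same order. The rRNA share of all counts was the same without mitochondrial features, which had 0 counts, and no rRNA feature overlapped another. Mitochondrial rRNA could not be added, because those features had 0 counts. Most single 5S features had under 20 counts in a WCE library, which limits what can be said of them there.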
